A study of Mus musculus with 9 samples.

Results

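Luteolin is a plant flavonoid, and the comparison described here asked what it changed in the fat of mice that ate the same high-fat diet. The 3 arrays of the LU group were set against the 3 arrays of the HFD group, 6 of the 9 arrays of the series, and the difference was read across 8699 named genes. RNA had been taken from epididymal white adipose tissue (WAT), a visceral fat depot, of C57BL/6J males (the strain label spells it C56BL/6J) that arrived at 4 weeks of age and were housed singly. All groups ate their diet for 16 weeks. The HFD group received a diet that the labels give as 20% fat with 1% cholesterol and no luteolin. The LU group received that diet with 0.005% luteolin by weight. The study reported lower final body weight and less visceral fat in its LU mice than in its HFD mice. The part of this difference in the results below was not tested. The 3 arrays of the normal diet (ND) group shared neither the fat nor the luteolin, and their levels are given for reference. They were also normalised, filtered and fitted with the other 6, so they enter the p-values of LU against HFD. The labels count 10 mice in each group, and the methods give another number of mice and state the fat as a share of energy. The methods describe pooled RNA without the number of mice in a pool, so each p-value measures only the spread between RNA samples that may be pools.

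White adipose tissue holds lipid-filled adipocytes together with macrophages, mast cells, lymphocytes, fibroblast-like progenitors, mesothelium and the endothelium of blood and lymph vessels. In obese mice, macrophages enter this depot and gather round dying adipocytes, fibroblasts lay down collagen, and the mitochondrial pathways of the adipocyte decline. RNA of the whole depot sums over all of these cells, so in every result below fewer cells of a type and less RNA per cell cannot be told apart.

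The signal of each probe is given as log2 of the quantile-normalised intensity, and a difference of 1 on this scale is a doubling. Of 45281 probes, the 20558 detected (detection p under 0.05) on at least 3 of the 9 arrays were compared with limma, with p-values adjusted by Benjamini-Hochberg over all of these probes and called under 0.05. Where a gene had several probes, the one with the highest mean signal was taken. Of the 8699 named genes 3301 differed between LU and HFD, a share of 37.9%, with 1714 higher in LU (19.7%) and 1587 lower (18.2%). These shares stand beside every list count of LU against HFD below. The names come with a table that omits 6127 of the kept probes, of which 5.96% were called, and the called share was lower among all probes kept (28.0%) and lower still among the 8258 kept probes without a gene name (14.0%). The count of higher genes fell to 1130 without LU1 and to 1117 without LU2. Changes were mostly small, since 85.8% of the called genes differed by less than 0.5 and the median size was 0.29. A change of at least 1.5-fold was made by 79 genes upward (0.908%) and by 214 genes downward (2.46%). The median of all named genes was 0.02, with the middle 50% between -0.13 and 0.16. Before normalisation the median signal of the LU arrays (193.5 to 197.3) lay below that of the HFD arrays (209.4 to 215.8). With arrays scaled to a common median instead of quantile-normalised, 1953 genes were higher and 1108 lower.

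**Figure D1:**
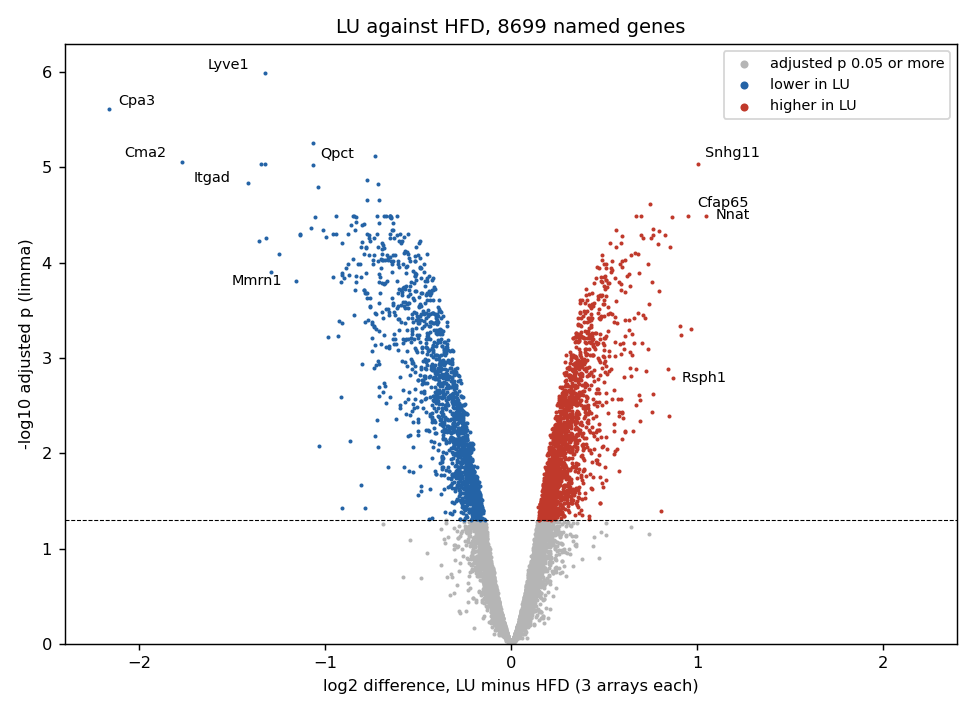
Each point is 1 of 8699 named genes, with the log2 difference LU minus HFD on the x axis and -log10 of the limma adjusted p on the y axis; the dashed line marks the threshold of 0.05. The left side reaches further out, with 20 genes called lower by at least 1 and 2 called higher by at least 1.

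Mast cells, which store proteases, heparin and histamine in granules and carry the high-affinity IgE receptor, gave the deepest falls of the data set. Of 19 genes in a list of mast cell granule and receptor genes 12 were measured, 10 of these were lower in LU and 1 was higher, with a list median of -0.65, or -0.53 with the genes lost to background in LU set at their bound. The plot of list members draws all 12. Cpa3, the mast cell carboxypeptidase, was at 10.15, 9.63 and 9.77 on the HFD arrays and at 7.71, 7.75 and 7.60 on the LU arrays. On the LU arrays it could not be told from background, and the level was at least 4.16-fold lower (adjusted p = 2.43e-06). Cma2, a mast cell chymase, stood at 10.22, 9.80 and 9.77 in HFD and at 8.31, 8.12 and 8.05 in LU, 3.41-fold lower (log2 -1.77 ± 0.12 SE, adjusted p = 8.82e-06). No HFD array reached down to an LU array for either gene, a separation that 59.6% of all named genes showed in some direction between these groups.

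The remaining granule genes followed. Mcpt4, another chymase, was above background on all HFD arrays and on none of the LU arrays and was at least 2.09-fold lower (adjusted p = 9.22e-06). The chymase Cma1 was 2.45-fold lower (adjusted p = 0.000124). It read 7.77, 7.74 and 7.81 in LU and was above background on only 1 of these arrays, so background limits this fold. Over the alternative settings its log2 difference ran from -2.58 to -1.13. The tryptase Tpsb2 was 1.71-fold lower (adjusted p = 4.95e-05) and the IgE receptor chain Fcer1a was 1.63-fold lower (adjusted p = 0.000161). Kit, the receptor for stem cell factor that mast cells keep and other cells also carry, was at 10.48, 10.35 and 10.47 in HFD and at 9.99, 10.22 and 10.08 in LU, a fall by 0.34 (adjusted p = 0.00256). Hdc, the enzyme that makes histamine, ran the other way. It read 10.64, 10.31 and 10.46 in HFD and 11.01, 11.14 and 11.08 in LU, 1.52-fold higher (adjusted p = 0.000804). Its other probe differed by 0.02 and was not called, and the mean of both probes gave 0.31. Gata2, a transcription factor of this lineage, differed by 0.15 (adjusted p = 0.129). Against the ND arrays, which were compared with the same LU arrays, 9 of the 12 genes were lower in LU and 1 was higher. Cpa3 read 9.53, 9.58 and 9.20 on the ND arrays, close to the HFD values. The share of all named genes called in LU against ND was 39.7%, with 21.1% higher and 18.6% lower.

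**Figure D2:**
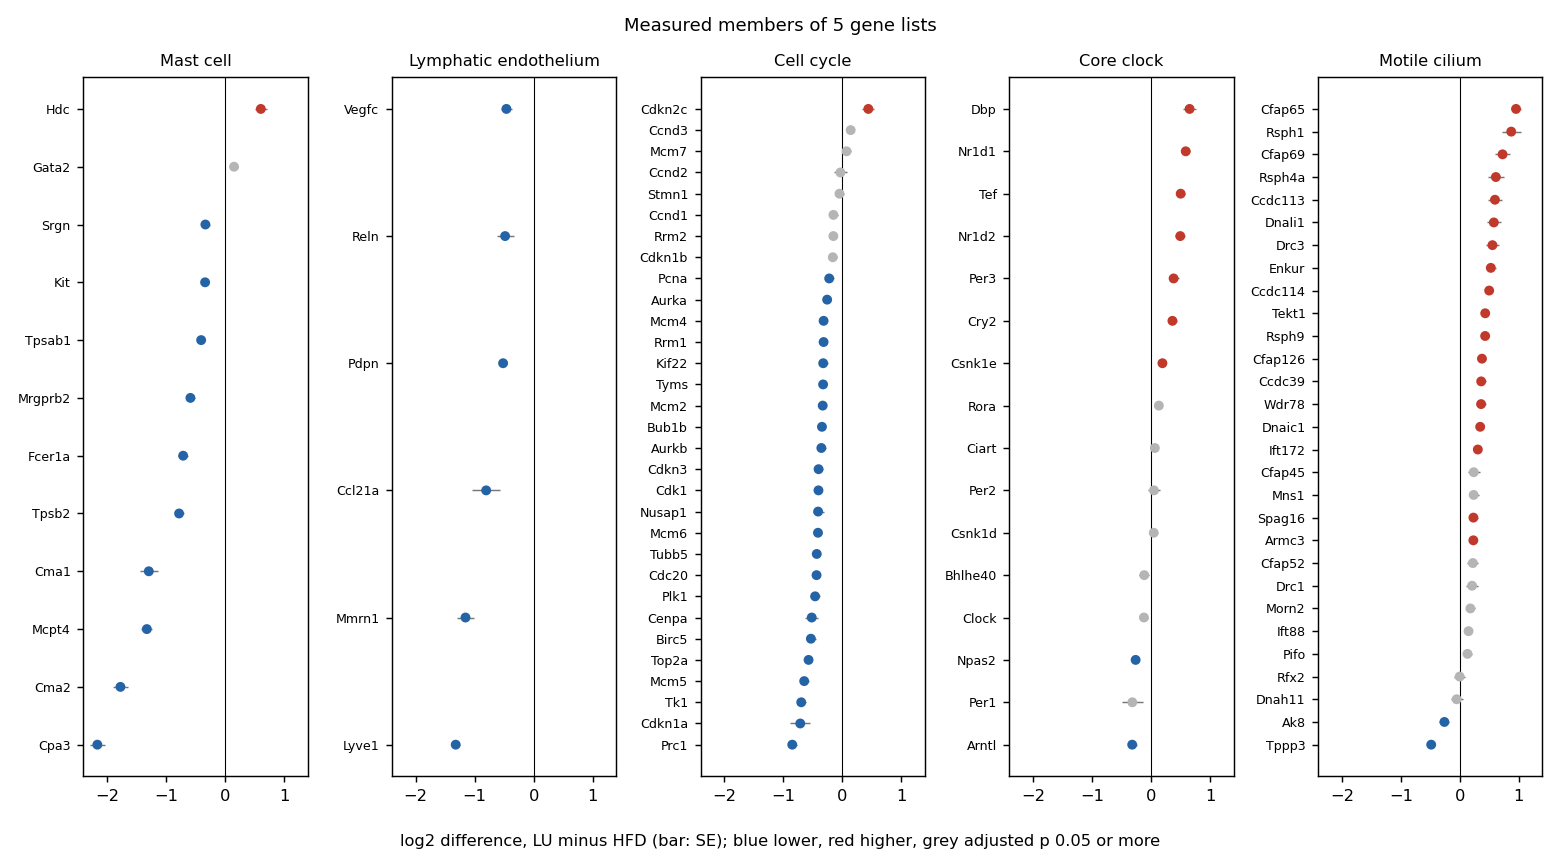
The log2 difference LU minus HFD of every measured member of 5 gene lists is shown with its standard error as a bar, blue where it was lower, red where it was higher and grey where the adjusted p was 0.05 or more. Mast cell and lymphatic genes reach beyond -1, cell cycle genes lie mostly between 0 and -1, and motile cilium genes lie mostly above 0. Cpa3, Mcpt4, Mrgprb2 and Npas2 are drawn at fitted values although no LU array was above background for them.

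Lymphatic endothelium lines the vessels that drain interstitial fluid and leukocytes from fat. All 6 measured genes of its list of 8 were lower in LU, with a median of -0.66, and 4 kept that call without HFD1, LU2 or LU3. Lyve1, a hyaluronan receptor of lymph vessels and of resident macrophages, had levels of 10.41, 10.24 and 10.34 in HFD and between 8.91 and 9.12 in LU, a fall by 1.32 ± 0.07 SE (adjusted p = 1.01e-06). Mmrn1, a multimerin of lymphatic endothelium and platelets, was 2.23-fold lower (adjusted p = 0.000157). The chemokine Ccl21a, whose mouse genome copies are nearly identical so that its probe may read several of them, was 1.75-fold lower (adjusted p = 0.0217) and lost the call without HFD1, LU2 or LU3. Pdpn, the membrane glycoprotein podoplanin, fell by 0.52, Reln, the matrix protein reelin, by 0.48 (a call also lost without HFD1, LU2 or LU3), and the lymphatic growth factor Vegfc by 0.46.

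Against ND, 5 of the 6 were also lower in LU. Lyve1 stood at 10.68, 10.78 and 10.70 on the ND arrays, above every HFD and LU array. Vegfc had a difference of -0.00 from ND. A general list of endothelial genes gave other numbers, as 2 of 14 measured genes were higher, 1 without HFD1 or LU1, and 0 were lower. The markers Pecam1 and Cdh5, which do not tell blood from lymph vessels, differed by -0.05 and -0.07, neither past the threshold. Egfl7, a protein secreted by endothelium, was 1.48-fold higher (adjusted p = 4.53e-05). Smooth muscle and pericyte genes gave 0 calls among 6 measured with limma and with the rank product, and 1 had an unadjusted p under 0.05.

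Macrophages of fat comprise residents that sit along vessels and clear debris, and lipid-laden cells that accumulate in obesity. The list of resident genes had 14 of 19 measured members lower in LU and none higher, with a median of -0.69. Vsig4, a complement receptor of resident macrophages, was 2.54-fold lower (adjusted p = 9.22e-06). Folr2, a folate receptor, read 12.19, 12.14 and 11.98 in HFD and 11.12, 10.95 and 11.08 in LU, 2.07-fold lower (adjusted p = 3.32e-05). Ccl8, a chemokine, was 1.98-fold lower (adjusted p = 0.000596). Of the same 19 genes 15 were lower in LU than in ND. The list of lipid-associated macrophage genes had 10 of 18 lower and 3 higher, with a median of -0.27, and 14 of the 18 were higher in LU than in ND. Trem2, the lipid receptor that marks these cells, had 12.83, 12.69 and 12.29 in HFD, 11.94, 11.63 and 11.84 in LU and 9.13, 8.95 and 8.68 in ND. Its LU level was thus 1.74-fold under HFD (adjusted p = 0.00117), while its difference from ND was 2.88 (adjusted p = 1.43e-07). The 3 higher members were Cd36, Lpl and Apoe, genes of lipid uptake and transport that adipocytes express as well, of which only 1 was called without HFD1, HFD2, LU2 or LU3. The resident and lipid-associated lists were each described by their own counts, and the difference between them was not tested.

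The machinery by which leukocytes move and recognise antibody fell with them. Of 19 measured genes of the leukocyte cytoskeleton 17 were lower in LU and none higher, with a median of -0.51. Lcp1, an actin-bundling protein of leukocytes, was 1.86-fold lower (adjusted p = 0.000144). Of 13 measured Fc receptors and their signalling adaptors 11 were lower, led by the IgG receptor Fcgr3, which was 1.80-fold lower (adjusted p = 9.11e-05), and by Tyrobp, the adaptor of Trem2, which was 1.73-fold lower (adjusted p = 0.000423). Among 9 leukocyte integrins and their ligands 7 were lower and 1 higher, a count that fell to 4 lower without HFD1, HFD2 or LU2. Itgad, an integrin of macrophages, was at 10.37, 10.10 and 9.80 in HFD and at 8.71, 8.60 and 8.72 in LU, 2.66-fold lower (adjusted p = 1.47e-05), and was not detected on any ND array. None of 6 neutrophil genes passed with limma, 1 had an unadjusted p under 0.05 and 1 was lower by the rank product of the methods. Prf1, the pore-forming protein of cytotoxic lymphocytes, was 1.63-fold higher in LU (adjusted p = 0.000702), while 3 of the other 4 cytotoxic cell genes measured were lower, 1 of them without HFD2 or LU2.

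**Figure D3:**
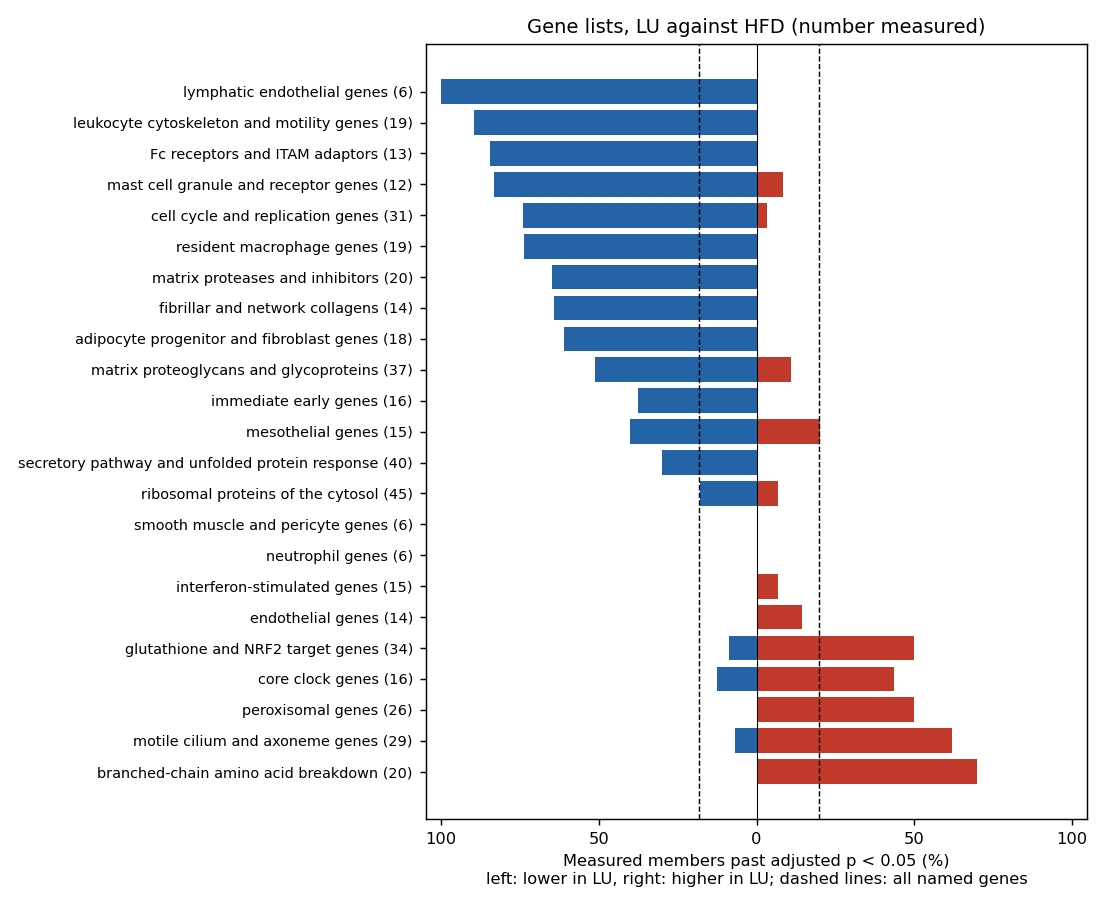
For 23 gene lists, bars give the percent of measured members called lower in LU (left, blue) and higher in LU (right, red), with the number measured in parentheses. The dashed lines are the shares over all named genes (18.2% lower, 19.7% higher), which the lists at the top exceed on the left and those at the bottom on the right.

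The extracellular matrix of fat is laid down by fibroblast-like progenitors and is cut by metalloproteases. Of 37 measured proteoglycans and glycoproteins 19 were lower in LU and 4 higher. Lum, the collagen-binding proteoglycan lumican, was at 12.78, 12.73 and 12.55 in HFD and at 11.39, 11.44 and 11.49 in LU, 2.38-fold lower (adjusted p = 8.1e-05), and its difference from ND was -0.11 (adjusted p = 0.584). Mgp, the inhibitor of calcification, was 2.56-fold lower (adjusted p = 5.9e-05) and Mfap5, a microfibril protein, 1.99-fold lower (adjusted p = 5.39e-05). The 4 higher members were Nid1, Lamb2 and Lama4, which encode basement membrane proteins, and Emilin2, which lost the call without HFD1, HFD2, LU2 or LU3. Lama4 read 8.49, 8.29 and 8.53 in HFD and 8.83, 8.79 and 8.74 in LU, 1.27-fold higher (adjusted p = 0.00311). Collagens were lower in 9 of 14, and none was higher.

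Matrix proteases and their inhibitors were lower in 13 of 20, and none was higher. Timp1, an inhibitor of metalloproteases, had 10.65, 10.35 and 9.98 in HFD and 8.94, 9.09 and 8.99 in LU, a fall by 1.32 (adjusted p = 5.48e-05), and its LU level was 0.51 above ND (adjusted p = 0.0131). Genes of adipocyte progenitors and fibroblasts were lower in 11 of 18, a count that fell to 6 without LU2. Sfrp1, a secreted Wnt antagonist, led them with a 1.60-fold difference (adjusted p = 0.00197). Mesothelial genes split. The uroplakins Upk1b and Upk3b fell by 0.78 and 0.77 (adjusted p = 0.000206 and 0.000399), while the keratins Krt18 and Krt8 rose by 0.54 and 0.51 (adjusted p = 0.00267 and 0.014). Krt8 lost its call without HFD2, HFD3 or LU2. In all, 6 of 15 mesothelial genes were lower and 3 higher, with 3 lower when HFD3 or LU3 was left out and 1 higher without HFD2, HFD3 or LU2, and 12 were lower in LU than in ND.

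Cells that divide switch on genes for DNA replication and for the spindle. In LU 23 of 31 measured genes of this list were lower and 1 was higher, with a median of -0.35. Many of their promoters carry the cell cycle homology region, the letters TTTGAA, through which such genes are held silent in resting cells. This motif and the one below were picked after their matches had been seen. The RefSeq promoters of mouse build GRCm38.p6, 250 bases before to 50 after the start, were searched for it on both strands. It was present in 11 of the 26 list members with a promoter in the table (42.3%) and in 18.1% of all 27025 promoters. Such genes are known to carry these letters, so this share is not a result of these arrays. All 11 members with the letters were lower in LU, as were 10 of the 15 without them (1 of the 15 was higher). The letters CCAAT were searched in the same way and were in 19 of the 26 (37.9% of all promoters). Of these 19 members 16 were lower, as were 5 of the 7 without CCAAT. In a list of clock genes the letters CACGTG were in 3 of 13 promoters (7.24% of all). Of these 3 members 1 was higher, as were 6 of the 10 without CACGTG. No difference between such counts was tested. For Bub1b, Cenpa, Aurka, Plk1 and Prc1, which are among the 11, no match lay wholly before the annotated start. The windows of 3 of the 11 are shown with up to 30 bases on either side and nothing past the annotated start. They are examples of the letters (in capitals, for Top2a as the reverse complement TTCAAA) beside genes that moved together.
Top2a, chr11:99024190-99024242, minus strand: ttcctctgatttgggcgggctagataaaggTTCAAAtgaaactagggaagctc
Cdk1, chr10:69352913-69352957, minus strand: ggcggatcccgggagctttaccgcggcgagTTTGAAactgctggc
Cdc20, chr4:118437344-118437391, minus strand: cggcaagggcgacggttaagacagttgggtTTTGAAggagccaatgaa

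Top2a, the topoisomerase that untangles replicated DNA, was at 8.68, 8.65 and 8.59 in HFD and at 8.10, 8.01 and 8.09 in LU, 1.49-fold lower (adjusted p = 7.84e-05). Cdk1, the kinase that drives mitosis, was 1.32-fold lower (adjusted p = 0.000504) and Cdc20, an activator of the anaphase-promoting complex, 1.35-fold lower (adjusted p = 0.000536). The deepest fall was that of Prc1, a protein of the central spindle, which read 10.40, 10.57 and 10.25 in HFD and 9.51, 9.58 and 9.58 in LU, 1.80-fold lower (adjusted p = 3.22e-05). Tk1, the thymidine kinase, was 1.62-fold lower (adjusted p = 9.13e-05), although its dimmer probe fell by only 0.15 and was not called. The only higher gene was Cdkn2c, an inhibitor of the early cyclin-dependent kinases, which was 1.36-fold higher (adjusted p = 0.00614). The inhibitor Cdkn1a, which halts the cycle and was in the same list, fell by 0.71 (adjusted p = 0.0087). Against ND 18 of the 31 were higher in LU and 0 were lower. Prc1 was at 8.87, 8.97 and 8.85 on the ND arrays, below every LU array.

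Proteins bound for the membrane or for export are folded in the endoplasmic reticulum, and when folding falls behind, the unfolded protein response raises the chaperones. Of 40 measured genes of this secretory pathway 12 were lower in LU and none was higher, with a median of -0.12. The ER stress element, CCAAT and CCACG with 9 bases between them, is the site of this response in the promoters of chaperone genes. It was found in 6 of the 34 list members with a promoter in the table and in 0.13% of all promoters, which is the known make-up of the pathway and not a result of these arrays. Of the 6 members 2 were lower in LU, Calr and Creld2, and the other 4 were not called (Hspa5, Hsp90b1, Pdia6 and Dnajc3). Both lower genes and Hspa5, the chaperone that marks the response, are shown with the element in capitals, which in Calr and Creld2 lies as the reverse complement.
Calr, chr8:84847045-84847123, minus strand: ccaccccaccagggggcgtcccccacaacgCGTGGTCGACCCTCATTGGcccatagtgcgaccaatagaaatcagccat
Creld2, chr15:88819490-88819568, plus strand: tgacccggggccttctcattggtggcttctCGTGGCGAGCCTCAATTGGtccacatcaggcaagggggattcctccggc
Hspa5, chr2:34771995-34772073, plus strand: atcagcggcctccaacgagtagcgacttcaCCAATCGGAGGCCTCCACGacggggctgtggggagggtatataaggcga

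Calr, the calcium-binding chaperone calreticulin, was at 10.30, 10.24 and 10.07 in HFD and at 9.41, 9.49 and 9.65 in LU, 1.61-fold lower (adjusted p = 0.000168). Creld2 was 1.42-fold lower (adjusted p = 0.00327). Sdf2l1, a cofactor of Hspa5, was 1.54-fold lower (adjusted p = 8.38e-05) and Ostc, a subunit of the enzyme that adds sugars to new proteins, 1.53-fold lower (adjusted p = 5.09e-05). Kdelr3, a receptor that returns chaperones to the endoplasmic reticulum, fell by 0.49 (adjusted p = 0.00286). Hspa5 itself had 8.29, 8.30 and 8.48 in HFD and 8.27, 8.24 and 8.23 in LU, a difference of -0.11 (adjusted p = 0.283). Its probe read near the background of 7.79 to 7.83, which limits what the missing call shows. Xbp1 and Ddit3, regulators of the response, differed by 0.05 and 0.07 and were not called. Sdf2l1 and Ostc differed from ND by 0.02 and -0.08, neither past the threshold.

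The circadian clock pairs activators (Arntl, Clock and Npas2) with repressors and output genes that peak at another time of day. Of 16 measured clock genes 7 were higher in LU and 2 were lower. The output factor Dbp was at 11.04, 11.01 and 10.98 in HFD and at 11.60, 11.75 and 11.64 in LU, 1.57-fold higher (adjusted p = 0.000935). Nr1d1, the repressor REV-ERB alpha, read 8.44, 8.55 and 8.54 in HFD and 9.04, 9.13 and 9.13 in LU, a rise by 0.59 (adjusted p = 0.000103). Tef, a factor related to Dbp, was 1.42-fold higher (adjusted p = 0.000733), Nr1d2 1.41-fold higher (adjusted p = 0.000945), Per3 0.38 higher on the log2 scale (adjusted p = 0.00508) and Cry2 1.28-fold higher (adjusted p = 0.00266). The activator Arntl was lower, with 9.75, 9.85 and 9.86 in HFD and 9.58, 9.53 and 9.39 in LU, a fall by 0.32 (adjusted p = 0.00734). Npas2, above background on all HFD arrays but none of LU, was called lower on its fitted values (limma adjusted p = 0.00832). Its bound, at least 1.06-fold lower, is close to no difference and was not tested. Clock, Per1 and Per2 were not called. Nr1d1 and Tef differed from ND by 0.07 and 0.02, neither past the threshold, while Dbp was 0.67 above ND (adjusted p = 0.000742). The hour of tissue collection is not given in the sources used here, so a difference in the hour and a difference in the diet cannot be told apart for these genes.

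**Figure D4:**
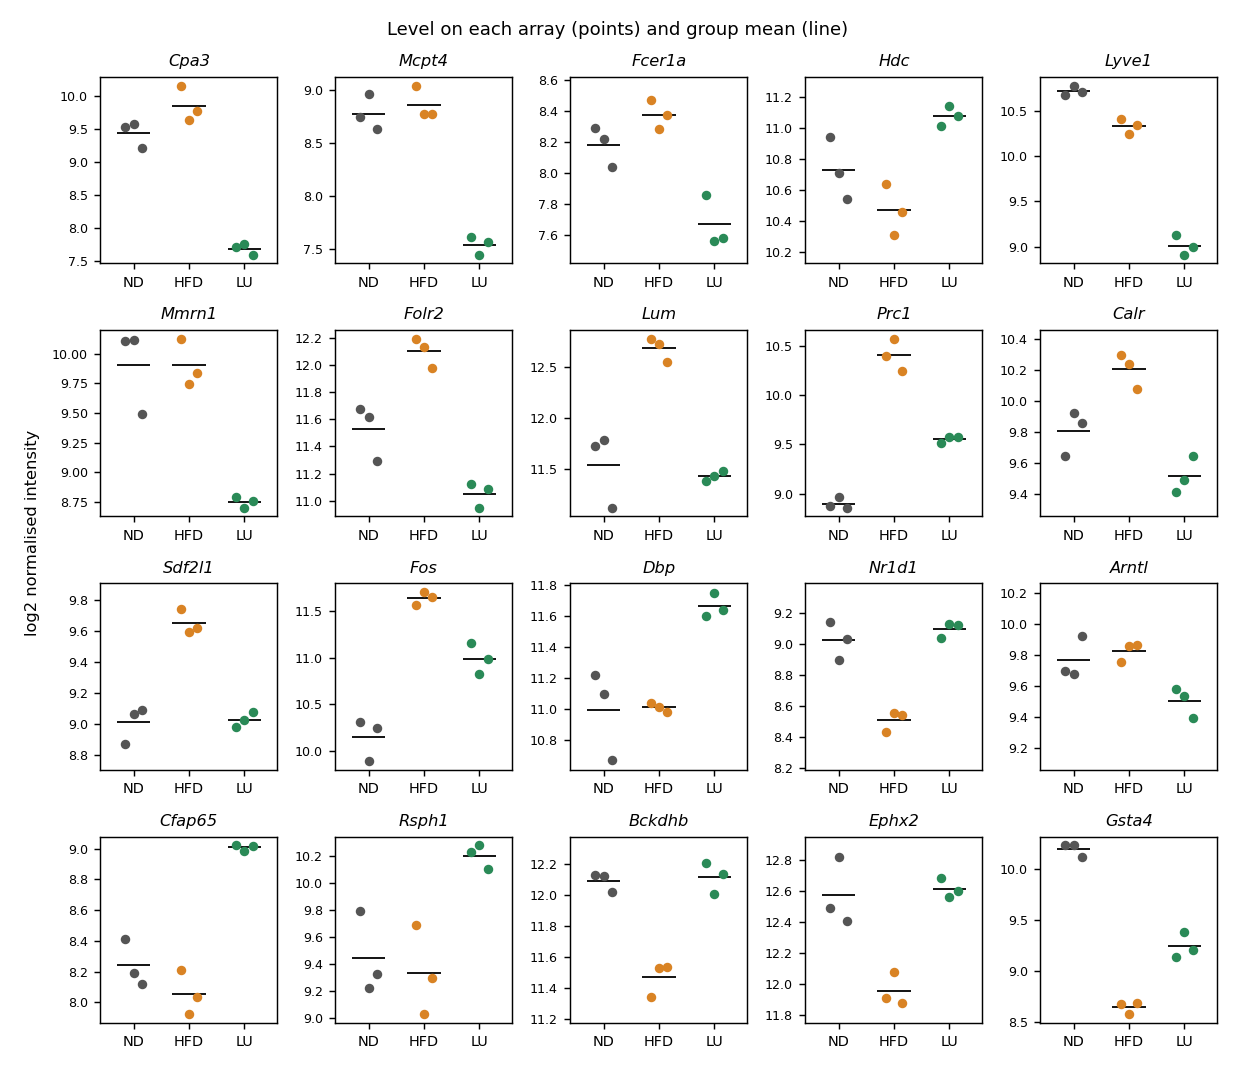
Log2 normalised intensity of 20 genes on the 3 arrays of each group (points) with the group mean (line), for ND, HFD and LU. In all 20 panels the LU points lie wholly above or wholly below the HFD points, as they did for 59.6% of all named genes. For Cpa3, Mcpt4, Fcer1a, Lyve1, Mmrn1 and Arntl, among others, the LU points lie below the ND points as well.

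Genes that respond within minutes to a stimulus or to handling were lower in 6 of 16, and none was higher. Egr2, a zinc finger factor, had 11.13, 11.21 and 10.80 in HFD and 10.44, 10.15 and 10.30 in LU, 1.68-fold lower (adjusted p = 0.000417). Atf3, a stress-induced factor, was 1.65-fold lower (adjusted p = 0.000492) and Fos 1.58-fold lower (adjusted p = 0.00074). Egr2, Atf3 and Fos were 1.47, 1.46 and 0.84 above ND in LU, while Egr1, Jun and Dusp1 were not called against HFD. Targets of the glucocorticoid receptor were lower in 5 of 16 and higher in 1, with 3 lower without HFD3 or LU2 and none higher without HFD1, HFD2 or any LU array. Errfi1, a feedback inhibitor of the EGF receptor, fell by 0.71 (adjusted p = 0.00107), and Fkbp5, the cochaperone that tunes the receptor, by 0.35 (adjusted p = 0.00594). Mt1, Mt2 and Nr3c1, the receptor gene, were not called. The interferon-stimulated genes gave 1 higher and 0 lower of 15. NF-kB genes were lower in 5 of 13, and in 2 when LU2 or LU3 was left out.

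Among the largest rises stood genes of motile cilia, the beating hairs that line airways, oviducts and the ducts beside the epididymis and that adipocytes are not known to carry. Of 70 genes in a list of motile cilium and axoneme genes 29 were measured, 18 were higher in LU and 2 were lower, with a median of 0.34. Cfap65, a protein of the axoneme, was at 8.21, 7.92 and 8.04 in HFD and at 9.02, 8.99 and 9.02 in LU, 1.93-fold higher (adjusted p = 3.22e-05). Rsph1, of the radial spoke head, read 9.69, 9.03 and 9.29 in HFD and 10.23, 10.28 and 10.10 in LU, 1.83-fold higher (adjusted p = 0.00163). Cfap69, Rsph4a, Ccdc113 and Dnali1 rose by 0.72, 0.61, 0.60 and 0.58. HFD1 was the highest of the HFD arrays for Cfap65, Rsph1, Cfap69, Rsph4a, Ccdc113 and Dnali1, and still lay below every LU array. The lower genes were Tppp3 (log2 -0.49, adjusted p = 0.000343) and Ak8 (log2 -0.26, adjusted p = 0.034), and only 1 was called without HFD1, HFD2 or any LU array. Against ND 16 of the 29 were higher in LU and 3 were lower, a comparison that uses the same LU arrays.

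Genes of the epididymal duct gave no call, and whether tissue of the ciliated ducts beside it was present was not tested. Of 20 epididymal duct genes 5 passed the filter on dim probes and none was called by limma or the rank product, with 0 at an unadjusted p under 0.05. Aqp9 and Cst11 were detected on all 9 arrays and differed by 0.12 and -0.01. Adam7, the defining marker of that epithelium among them, read 9.30, 7.62 and 7.78 in HFD and 7.45, 7.79 and 7.72 in LU, and was above background on 1 HFD array (HFD1), on 2 ND arrays and on no LU array. Of 14 testis and sperm genes only Odf2, which also builds the centriole of other cells, was measured (log2 0.31), and all 3 defining sperm markers failed the filter. Other genes known from ciliated cells were among the 15 largest rises, including Dynlrb2, a dynein light chain (1.80-fold, adjusted p = 0.00408), and Odf3b (1.74-fold, adjusted p = 0.000199).

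The largest rise was that of Nnat, an imprinted membrane protein of brain and fat, which had 11.20, 11.23 and 11.41 in HFD and 12.37, 12.32 and 12.30 in LU, 2.07-fold higher (adjusted p = 3.22e-05). Snhg11, a noncoding host of small nucleolar RNAs, was 2.01-fold higher (adjusted p = 9.22e-06), with 10.94, 10.79 and 10.91 in HFD and 11.94, 11.85 and 11.86 in LU. Ppp1r1b, the phosphatase inhibitor DARPP-32, was 1.95-fold higher (adjusted p = 0.000492). Only Nnat and Snhg11 rose by 1 or more. Acsm3, a medium-chain acyl-CoA synthetase, was also among the 15 largest (1.75-fold, adjusted p = 0.0405), but lost the call when any single HFD or LU array was left out. Its ND arrays, at 11.24, 12.51 and 11.07, lay far above every HFD and LU array.

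Branched-chain amino acids are broken down in the mitochondria of adipocytes, a use that falls in obesity. Of 20 measured genes of this pathway 14 were higher in LU and none was lower, with a median of 0.31, and 9 were called without HFD1 or LU1. Bckdhb, a subunit of the dehydrogenase that commits these acids to breakdown, was at 11.34, 11.53 and 11.53 in HFD and at 12.21, 12.00 and 12.13 in LU, 1.57-fold higher (adjusted p = 8.27e-05). Mccc1, of the leucine branch, was 1.53-fold higher (adjusted p = 0.000586), Acadsb, of the isoleucine branch, 1.41-fold (adjusted p = 0.000362) and Pccb, a propionyl-CoA carboxylase subunit, 1.38-fold (adjusted p = 0.000224). Bckdhb differed from ND by 0.03 and Mccc1 by -0.10, neither past the threshold, and 8 of the 20 were still lower in LU than in ND.

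Peroxisomes, which shorten very long fatty acids and detoxify peroxide, had 13 of 26 genes higher and none lower. Ephx2, the soluble epoxide hydrolase, read 11.91, 12.08 and 11.88 in HFD and 12.68, 12.56 and 12.60 in LU, 1.58-fold higher (adjusted p = 0.000379). Pex13 and Pex6, of the import machinery, were 0.45 and 0.42 higher. Subunits of oxidative phosphorylation were higher in 34 of 62 with none lower, although the median was only 0.19 and the count was 19 without HFD1. Cox8b, a cytochrome oxidase subunit of brown fat and muscle, had the largest change in this list, which holds nuclear genes, at 1.61-fold (adjusted p = 0.000127). ND6, a complex I subunit encoded by the mitochondrial genome and not in the list, was 1.82-fold higher (adjusted p = 3.32e-05). Mitochondrial ribosomal proteins were higher in 18 of 56, and in 10 without HFD1 or LU2. Ppargc1a, a coactivator of mitochondrial genes, had 8.47, 8.28 and 8.32 in HFD and 8.74, 8.84 and 8.84 in LU, 1.36-fold higher (adjusted p = 0.000805). For comparison, cytosolic ribosomal proteins gave 3 higher and 8 lower of 45, with 4 lower without HFD2 or LU3 and 1 higher without HFD2, HFD3 or any LU array.

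Flavonoids can meet the xenobiotic receptors of a cell. Of 11 aryl hydrocarbon receptor genes only 4 were measured and 1 was called. This was Cyp1b1, a cytochrome P450 that the receptor induces and that fat also makes at rest, at 11.53, 11.44 and 11.48 in HFD and 11.01, 10.91 and 10.90 in LU, 1.46-fold lower (adjusted p = 0.00644). Ahrr, the repressor the receptor induces, differed by -0.03 and was not called. Glutathione enzymes and targets of the antioxidant factor NRF2 were higher in 17 of 34 and lower in 3, or in 1 without LU2. Gsta4, which conjugates lipid aldehydes, had 8.67, 8.57 and 8.69 in HFD and 9.13, 9.38 and 9.21 in LU, 1.51-fold higher (adjusted p = 0.000112), yet 0.96 below ND. Gpx3, the secreted glutathione peroxidase, was 1.37-fold higher (adjusted p = 0.0117), a call lost without HFD2 or LU2. Gstm4 and Gsta3 rose by 0.49 each (adjusted p = 0.000161 and 0.00127). Nfe2l2, which encodes NRF2, was lower (log2 -0.32, adjusted p = 0.0128) but not without LU2, and among its classic targets Hmox1, Gclm, Gclc and Txnrd1 were not called.

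Cytochromes P450 and their partners moved both ways, 4 higher and 4 lower of 15 (26.7% each, against 19.7% and 18.2% of all named genes). No lower call was left without HFD2, LU1 or LU2. Cyp2e1, which oxidises ethanol and ketones, was 1.81-fold higher (adjusted p = 6.77e-05), with 14.29, 14.28 and 14.61 in HFD, 15.27, 15.39 and 15.10 in LU and 15.87 on each ND array. The carboxylesterases Ces1f and Ces1d were 1.61-fold and 1.54-fold higher (adjusted p = 0.00461 and 0.000137), whereas Ces2g was 1.49-fold lower (adjusted p = 0.000103). Csad, which makes the taurine precursor hypotaurine, was at 11.38, 11.36 and 11.34 in HFD and at 12.18, 12.03 and 12.12 in LU, 1.68-fold higher (adjusted p = 2.45e-05), and differed from ND by 0.02.

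Genes of lipid synthesis in the adipocyte were higher in 5 of 16 measured, with none lower and 3 called without HFD3, LU1 or LU3. Mlxipl, the sugar-sensing factor ChREBP, was 1.55-fold higher (adjusted p = 0.00013), with 10.42, 10.27 and 10.40 in HFD and 10.99, 10.99 and 11.01 in LU. Thrsp, its target Spot 14, was 1.56-fold higher on its brightest probe (adjusted p = 0.00127) and 0.20 higher on the other probe, which was not called. Fasn and Pnpla3 stood 0.51 and 0.64 higher without passing (adjusted p = 0.0713 and 0.0598). Cholesterol synthesis and uptake genes were lower in 4 of 15 (26.7%, against 18.2% of all named genes) with none higher. Only 1 of the 15 was lower without HFD2, LU1 or LU2. Pltp, a phospholipid transfer protein and target of the oxysterol receptor LXR, was steady within each group, at 10.26, 10.27 and 10.26 in HFD and 9.55, 9.51 and 9.53 in LU, 1.66-fold lower (adjusted p = 7.68e-06). Of 9 measured LXR targets 3 were higher and 2 lower, with a median of 0.09, and none was higher without HFD1 or LU2 and 1 lower without HFD1, HFD2, LU2 or LU3.

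Pck1, the adipocyte enzyme that supplies glycerol for re-esterification, was at 9.85, 9.93 and 10.35 in HFD and at 10.81, 10.68 and 10.79 in LU, 1.64-fold higher (adjusted p = 0.000382). Dgat1, which completes triacylglycerol, was 1.42-fold higher (adjusted p = 0.000622). The fatty acid carriers Cd36 and Fabp4 rose by 0.62 and 0.83 (adjusted p = 9.42e-05 and 5.15e-05). The Fabp4 probe that carries a name here read only 8.19 to 9.28 on the HFD and LU arrays, near the background of 7.79 to 7.83. The only named Cd36 probe was also dim, at 8.83 to 9.63 on these arrays. The adipocyte hormones Lep and Adipoq differed by -0.09 and 0.09 and were not called. Adipoq read 15.69 to 15.89 on these arrays, near the highest signals given here (Ces1d at 15.91 to 15.95 in ND), where a difference may be compressed.

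Secreted factors gave 8 higher and 6 lower of 36 (22.2% and 16.7%), close to the 19.7% and 18.2% of all named genes. Rbp4, the retinol carrier that fat secretes, was at 10.75, 10.89 and 11.04 in HFD and at 11.68, 11.64 and 11.76 in LU, 1.73-fold higher (adjusted p = 4.61e-05). Vegfa, the growth factor of blood vessels, was 1.61-fold higher (adjusted p = 0.00247), with 12.28, 12.41 and 12.95 in HFD and 13.30, 13.16 and 13.24 in LU. Nrg4, a factor by which fat acts on liver, rose by 0.56 (adjusted p = 0.000674), and Fgf10, a factor for new adipocytes, by 0.52 (adjusted p = 0.000518). Igfbp6 and Igfbp3, which bind insulin-like growth factors, were 0.71 and 0.61 lower. Genes of the TGF-beta and BMP pathways were lower in 10 of 28 and higher in 4, with 1 higher without HFD1, LU2 or LU3. Tgfbi, a matrix protein induced by TGF-beta, was 1.57-fold lower (adjusted p = 3.22e-05), and Bmp4, which commits progenitors to fat, was 1.51-fold higher (adjusted p = 0.000911).

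Signals of the defining markers were summed for each array. All 4 macrophage markers were lower, and their sum was 16648 to 20703 in HFD and 10436 to 11997 in LU. The 4 mast cell markers summed to 2900 to 3658 in HFD and to 1654 to 1847 in LU, with Cpa3 at background and with Kit, which other cells also carry, in the sum. The 5 adipocyte markers, 3 of them called higher, summed to 154804 to 161233 in HFD and to 160244 to 164508 in LU. These ranges overlapped, with Adipoq, whose differences may be compressed, in the sum. Fibroblast markers, 2 of 3 called lower, summed to 56952 to 58888 in HFD and to 51908 to 55329 in LU. The other, Dcn, was not called, and its further probes were called in both directions (log2 -0.49 to 0.18). The endothelial ranges (6695 to 7645 and 6610 to 7002) overlapped. The 2 measured T cell markers, 1 of them called lower, summed to 645 to 820 in HFD and to 556 to 607 in LU. The 3 mesothelial markers, 1 of them called lower, summed to 1401 to 1780 in HFD and to 979 to 1120 in LU. Of these, Krt19 was above background on no LU array. Red cell markers, a measure of blood in the tissue, were lower, at 37132 to 61523 in HFD and 25485 to 27137 in LU, and the probe of Hba-a1 may read its near-identical copy. The B cell, sperm and liver markers failed the filter on dim probes. The part of these markers in the results above was not tested.

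**Figure D5:**
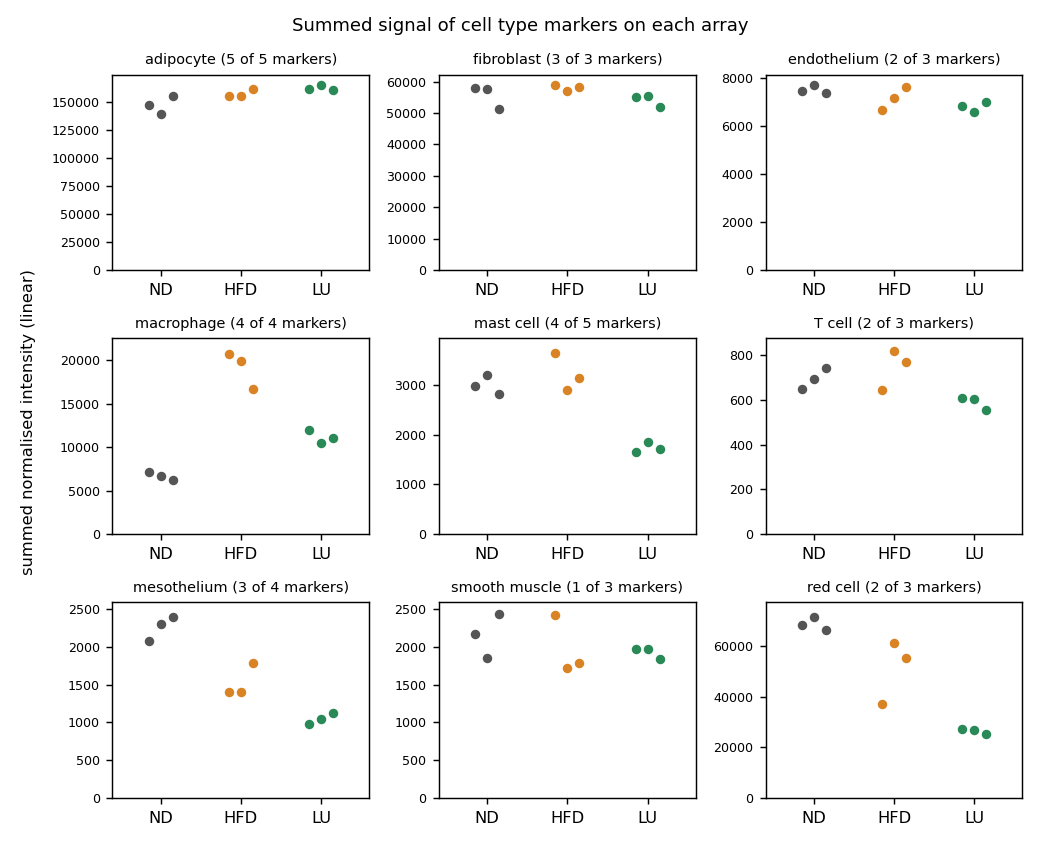
Summed linear normalised intensity of the measured markers of 9 cell types on each array, with the axis from 0 and the groups ND, HFD and LU. The macrophage, mast cell, T cell, mesothelial, fibroblast and red cell sums of the 3 LU arrays lie below those of the 3 HFD arrays, while the adipocyte, endothelial and smooth muscle sums of these groups overlap.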

How the data were processed

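RNA from epididymal WAT was hybridised to 9 Illumina MouseWG-6 v2 arrays, 3 in each group. The deposited intensity values are scanner signals that were not normalised by the authors, and each comes with a detection p-value that the authors deposited from the array software. A further table of 17128 probes holds log2 values that the authors quantile-normalised over the arrays, and the series values equal it. It served as an alternative and for gene names.

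The intensities of all 9 arrays were quantile-normalised, taken to log2 and fitted together in limma 3.58.1 under R 4.3.3. Probes entered the fit if 3 or more arrays detected them at p under 0.05. Names came from the platform annotation, which lists 14271 probes, 14264 with 1 gene and 7 with several, and 14246 were matched by Entrez number. Where a gene lacked signal above background throughout LU, the fold is a bound. It sets the HFD mean against the lowest signal detected on each LU array, or the signal of the gene if that was higher. The adjusted p beside such a fold belongs to the fitted difference, and the bound itself was not tested. Lists were described by counts and medians without a set test. The number of arrays limits the precision, and slides are not given in the sources used here.

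The genes and lists were chosen with earlier results of these data known. The text names the 15 largest rises and falls whose arrays do not overlap, up to 4 called members of each of 72 lists, cell type markers and genes whose probes disagree, as needed. Other genes, among them Hdc, Fcer1a, Top2a, Arntl, Hspa5, Vegfc and Lama4, were singled out after their values were seen. The alternatives were background correction, normalisation between arrays, the authors' table, the arrays fitted, a replicate block, the spread model, the filter, the probe rule, the methods' tests, the threshold and leaving out each array.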

Additional observations from a re-analysis of the deposited data

How the results depend on the processing

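The count of genes that differed was 3301. It was 540 with the rank product of the methods (219 higher and 321 lower, 532 of the 3301 called the same way) and 1886 at an adjusted p under 0.01 (884 higher, 1002 lower). With neqc background correction 320 genes were at least 1.5-fold higher and 500 at least 1.5-fold lower, against 79 and 214. With each array left out in turn, 1117 to 2017 genes were higher, fewest without LU2. Median scaling gave 1953 higher and 1108 lower. Fitted on the HFD and LU arrays only, without ND, 4089 genes differed (2180 higher, 1909 lower). Deviations of HFD and LU arrays with the same replicate number were little correlated (0.04, 0.01 and -0.10). These values cannot show whether such arrays shared a slide or other handling. With the number as a block 3152 genes differed (1624 higher, 1528 lower), 3063 of them called the same way as without it. Of 282 named genes past the threshold 136 kept their call under every alternative, 127 lost it with the rank product, 67 with the adjusted t-test, and 48 when some array was left out. List medians moved less than the spread in 1429 cases and more in 151. The median of iron, heme and copper genes turned to 0.0067 under median scaling, and Rps24 turned to -0.0051 with the mean of its probes. The cause was not tested. Signals near background limit what can be read for dim genes.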

Other observations

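Among 2671 genes with at least 2 probes kept, 39 had probes called in opposite directions. For Actb, beta-actin, a probe fell by 0.82 (adjusted p = 9.67e-05 with limma) from a mean of 11.58 in HFD to 10.76 in LU, while another rose by 0.42 (adjusted p = 0.0138). Lyz2, the macrophage lysozyme, fell by 0.85 on 1 probe (14.00 to 13.15), fell by 0.32 on the probe that stands for the gene here, and rose by 0.23 on a dim one (8.01 to 8.24). Srsf11, a splicing factor, fell by 0.30 on 1 probe and rose by 0.49 on another. Which transcripts these probes read was not tested.

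Presence above background also differed. In all, 87 genes were above background on at least 1 HFD array and on no LU array, 58 of them on all 3 HFD arrays, and 76 genes showed the reverse, 44 of them on all 3 LU arrays.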
